A study of Homo sapiens with 12 samples.

Results

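The chromosome 19p12 KRAB zinc finger cluster is a run of paralogous genes whose proteins join a KRAB domain to a tandem array of C2H2 zinc fingers. Members were taken by gene symbol: 35 ZNF genes, all placed by RefSeq on chromosome 19 of GRCh38.p14 between positions 19668153 and 24129968. Of these, 34 were listed among the 25435 genes of the overexpression experiment, where ZNF66 had no row, and all 35 among the 28008 genes of the silencing experiment. The question addressed was whether the cluster moved together when MUC1-C, the transmembrane subunit of mucin 1, was overexpressed or silenced, and which members were lost with overexpression.

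In a KRAB zinc finger protein, the finger array reads a stretch of DNA, often within a transposable element. The KRAB domain recruits TRIM28 (KAP1), which assembles the histone methyltransferase SETDB1, HP1 proteins and the NuRD complex and represses the bound locus. The 19p12 genes arose by repeated tandem duplication in primates. Among them, ZNF91 is known as a repressor of SVA elements, ZNF93 as a repressor of LINE-1 elements, and ZNF675 as an inhibitor of TRAF6 signalling. No role is given here for the other members.

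Both experiments were labelled as LNCaP, an androgen-sensitive line from a lymph node metastasis of prostate carcinoma, with 3 RNA-Seq libraries per group. In the first, LNCaP cells labelled wild-type were set against LNCaP/MUC1-C OE cells, for which the study describes MUC1-C in a CMV-driven vector, while the labels give a tet construct and a title prefix of short hairpins. The deposited control columns are named vector, and the sources do not settle if an empty vector was present in them. In the second, LNCaP-ER cells, selected in enzalutamide (an androgen receptor antagonist) for 24 weeks and carrying a tetracycline-inducible MUC1 short hairpin, were treated for 7 days with 0.1% DMSO (vehicle) or with 500 ng/mL doxycycline (DOX). The libraries came from triplicate cultures, and whether the transduced cells were clones is not stated in the labels.

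Library totals were 13806856 to 19208944 counts in the overexpression experiment and 28045894 to 45807989 in the silencing experiment. MUC1 had 30, 25 and 31 counts in the LNCaP libraries and 9168, 9959 and 12622 in the LNCaP/MUC1-C OE libraries. In the silencing experiment, MUC1 had 26, 10 and 13 counts with vehicle and 3, 42 and 8 with DOX. The library labelled DOX replicate 2 therefore went against its label. It also had 11.2% of listed genes at 0, against 27.95% to 38.1% in the other 5, and results of this experiment are given with and without it. The summed level of 10 luminal prostate markers was 384 to 403 CPM in LNCaP (counts relative to the library total, scaled by TMM unless stated), 99.2 to 111 in LNCaP/MUC1-C OE, where KLK2, KLK3 and FOLH1 were at 0, and 5568 to 6618 in the LNCaP-ER libraries. In a check of sex-linked genes, 6 of the 12 libraries did not match their labelled line. By the luminal levels, the libraries labelled LNCaP and LNCaP/MUC1-C OE stood far below the LNCaP-ER libraries, so that line identity is in doubt for every value of the overexpression experiment, the lost members included. Groups are named by their labels throughout, and line identity and treatment cannot be told apart where values of the 2 experiments stand side by side.

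RefSeq promoter windows, from 250 bases before to 50 bases after the annotated start on GRCh38.p14, were found for 27 of the 35 members, with 2 windows for ZNF682 and 1 for each of the others. They are shown because the members resembled each other here. As the members arose by tandem duplication, this likeness is no separate result. Of the motifs planned beforehand, GGGCGG was found in 71.4% of the member windows and 45.0% of all windows, and CACGTG in 0.0% and 7.26%. For CCATNTT the shares were 17.9% and 15.6%, and for TATAAA 10.7% and 11.5%. CCAAT and CCAATCA were not among those planned. CCAATCA was found on either strand in 27 of the 28 windows, all but the second of ZNF682, and so in at least 1 window of all 27 members, against 2279 of 27305 genes with a window (8.35%) and 74 of 378 other ZNF genes (19.6%). At least 2 copies of the shorter CCAAT on the gene strand, which CCAATCA contains, were found in 17 of the 27 members (63.0%), in 4.87% of all genes and in 11.9% of the other ZNF genes. In global alignment the windows of 2 members were 79.0% identical in the median over 351 pairs, with 1 window per member (range 57.7% to 91.0%). The 150 bases before the start are printed for 5 of the 6 members lost with MUC1-C overexpression (ZNF676 had no window), and for ZNF430, ZNF431 and ZNF91, which were not lost. They lie at chr19:19900796-19900945 for ZNF93, chr19:22052334-22052483 for ZNF257, chr19:21020507-21020656 for ZNF430 and chr19:21141890-21142039 for ZNF431, all on the + strand. On the - strand they lie at chr19:21836183-21836332 for ZNF43, chr19:22010944-22011093 for ZNF208, chr19:23758892-23759041 for ZNF681 and chr19:23395472-23395621 for ZNF91. Each is written 5′ to 3′ on the gene strand, with CCAAT in capitals.
ZNF93: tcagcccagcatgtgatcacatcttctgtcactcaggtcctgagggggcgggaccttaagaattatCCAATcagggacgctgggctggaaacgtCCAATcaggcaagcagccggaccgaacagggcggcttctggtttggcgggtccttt
ZNF43: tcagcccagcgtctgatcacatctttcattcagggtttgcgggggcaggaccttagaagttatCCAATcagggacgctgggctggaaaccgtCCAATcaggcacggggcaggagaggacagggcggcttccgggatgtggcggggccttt
ZNF208: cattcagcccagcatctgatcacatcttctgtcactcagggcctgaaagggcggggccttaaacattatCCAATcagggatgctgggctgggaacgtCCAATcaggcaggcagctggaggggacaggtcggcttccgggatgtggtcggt
ZNF257: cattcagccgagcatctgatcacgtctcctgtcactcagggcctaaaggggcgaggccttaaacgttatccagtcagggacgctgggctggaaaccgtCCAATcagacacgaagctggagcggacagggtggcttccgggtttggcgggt
ZNF681: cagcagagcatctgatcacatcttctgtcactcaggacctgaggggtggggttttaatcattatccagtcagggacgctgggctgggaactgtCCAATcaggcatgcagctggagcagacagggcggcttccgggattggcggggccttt
ZNF430: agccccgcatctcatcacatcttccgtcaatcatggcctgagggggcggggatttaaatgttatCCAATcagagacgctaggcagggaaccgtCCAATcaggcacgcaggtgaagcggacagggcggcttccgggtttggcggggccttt
ZNF431: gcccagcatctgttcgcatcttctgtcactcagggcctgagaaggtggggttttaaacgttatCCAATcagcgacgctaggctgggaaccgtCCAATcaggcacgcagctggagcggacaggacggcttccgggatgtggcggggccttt
ZNF91: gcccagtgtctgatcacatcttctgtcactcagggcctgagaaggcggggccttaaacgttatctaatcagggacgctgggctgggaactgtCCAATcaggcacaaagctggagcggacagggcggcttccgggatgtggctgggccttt

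In these sequences the copy nearer the start began 52 to 58 bases before it, and a farther copy, where present, began 81 to 87 bases before it. ZNF257, ZNF681 and ZNF91 each kept only the nearer copy. In copies of CCAAT, the windows of lost members and of members called higher were near each other. At least 2 copies were found in 3 of the 5 lost members with a window (60.0%) and in 5 of the 9 members called higher (55.6%). Pairs of 1 lost and 1 higher member were 80.7% identical in the median, against 82.0% for pairs of lost members and 74.3% for pairs of higher members. Whether the windows of these groups differ was not tested. CG dinucleotides numbered 8 to 18 per member window (median 10), with a median of 14 over all promoter windows and 22 over ZNF promoters. A match of letters is a description and not a binding site.

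With MUC1-C overexpression, the cluster did not move as one block. A set of 6 members fell from clear expression to the floor, 5 fell by smaller amounts, 10 rose, most by less than 2-fold, and 3 were not called. A gene was counted as lost where each LNCaP library had 10 or more counts and each LNCaP/MUC1-C OE library had 3 or fewer. By this rule ZNF93, ZNF43, ZNF208, ZNF257, ZNF676 and ZNF681 were lost, 6 of the 23 members present in LNCaP (26.1%), while 2.24% of the 13667 genes present in LNCaP were lost. Among other ZNF genes, 2 of 164 on chromosome 19 (ZNF544 and ZNF563) and 1 of 210 elsewhere (ZNF648) were lost. In bulk RNA, fewer cells that express a gene and less RNA per cell cannot be told apart.

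**Figure D1:**
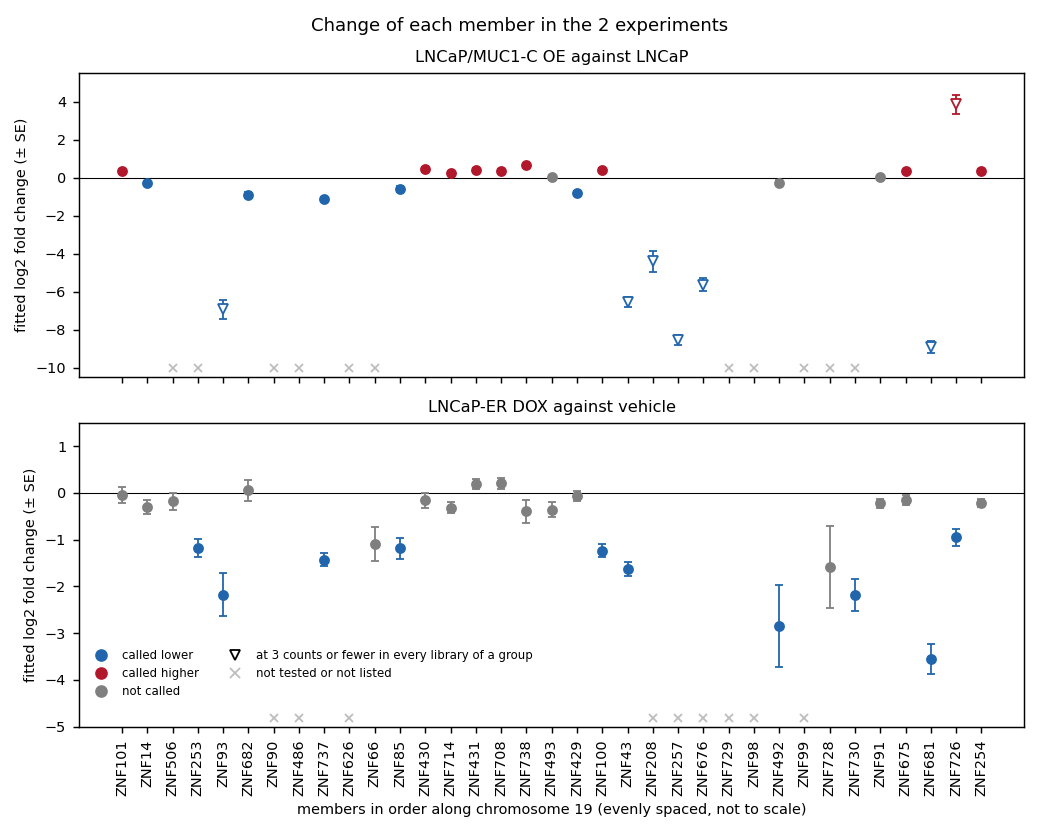
Fitted log2 fold change (y axis, ± SE of the fit) of each member, in order along chromosome 19 (x axis, evenly spaced), for LNCaP/MUC1-C OE against LNCaP (top) and LNCaP-ER DOX against vehicle (bottom), with 3 libraries per group. Blue members were called lower and red members higher, and open triangles mark members at the floor (no library of a group above 3 counts). In the top panel the 6 open triangles of the lost members lie far below 0, and that of ZNF726 lies above 0. In the bottom panel the 10 called members all lie below 0.

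ZNF257 had the most counts of the lost members: 524, 577 and 540 in the LNCaP libraries and 0, 1 and 2 in the LNCaP/MUC1-C OE libraries. The ratio of summed counts, scaled by effective library size, was 417-fold (95% exact interval 142 to 2024, counting error only). ZNF681 had 273, 271 and 285 counts in LNCaP and 0, 0 and 1 in LNCaP/MUC1-C OE, 632-fold lower by the same ratio (interval 113 to 24985). The rule on loss sets such a gap between the groups in advance.

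ZNF43 had 249, 200 and 210 counts in LNCaP and 3, 1 and 1 in LNCaP/MUC1-C OE, a ratio of 100.4 (interval 42.8 to 310.4). ZNF676 had 120, 117 and 112 counts against 2, 0 and 3, a ratio of 53.2 (interval 22.6 to 165). ZNF93, the LINE-1 repressor, had 66, 70 and 77 counts against 1, 0 and 0, a ratio of 162 (interval 28.8 to 6442). ZNF208 was the least expressed of the 6, with 29, 22 and 41 counts against 1, 0 and 2, and its ratio was 23.4 (interval 7.75 to 115). That every LNCaP library of the 6 lay above every LNCaP/MUC1-C OE library follows from the rule on loss. The adjusted p in the quasi-likelihood test of edgeR, Benjamini-Hochberg adjusted, ranged from 1.36e-14 for ZNF257 to 1.75e-06 for ZNF208. As the 6 were chosen by the same counts, these values add no separate support. Their fitted log2 fold changes, from -8.90 for ZNF681 to -4.41 for ZNF208, depend on the small count that the fit adds and are no bounds, and their order changed when 1 library was left out.

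The lost members were not spread evenly. ZNF43, ZNF208, ZNF257 and ZNF676 are 4 consecutive members between positions 21804946 and 22260304 of chromosome 19, a stretch of 455 kb that holds no other member. ZNF43, ZNF208 and ZNF676 lie on the - strand and ZNF257 on the + strand. The member before this stretch, ZNF100, was called higher, and those after it, ZNF729 and ZNF98, had 1 count or fewer in every library of the experiment. ZNF93 and ZNF681 lie apart from the stretch and from each other. In GENCODE v29 transcripts, ZNF208 and ZNF676 shared 100-base words with each other and ZNF93 with ZNF253, at most 0.141% of the words of any of the 6, and ZNF43, ZNF257 and ZNF681 shared none.

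**Figure D2:**
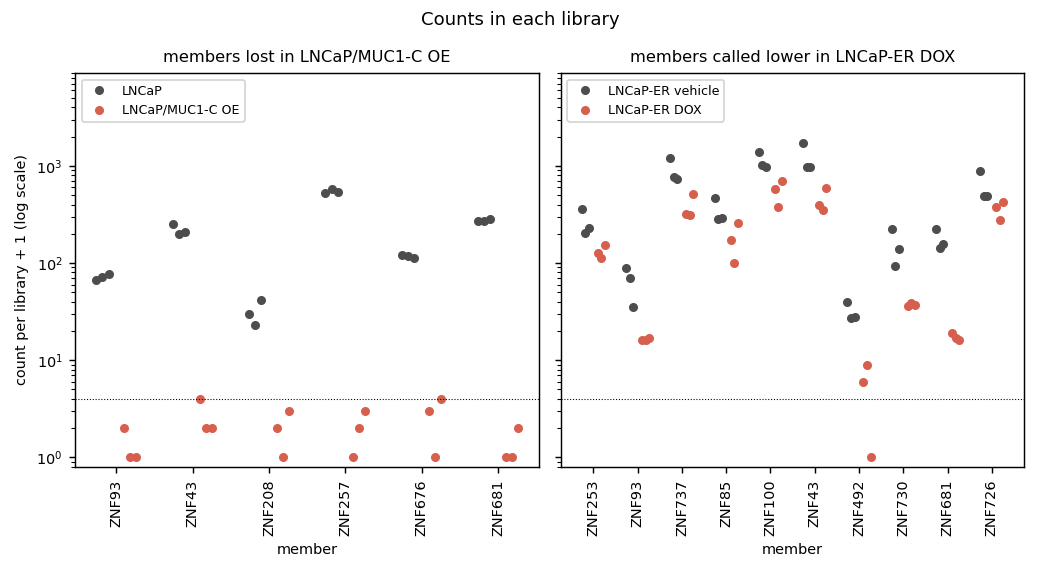
Count per library plus 1 (y axis, log scale) for the 6 members lost in LNCaP/MUC1-C OE (left, grey LNCaP and red LNCaP/MUC1-C OE) and the 10 members called lower in LNCaP-ER DOX (right, grey vehicle and red DOX), 1 point per library and 3 per group. The dotted line marks 3 counts. By the rule on loss, all 18 points of the lost members in LNCaP/MUC1-C OE lie on or under it. In DOX only ZNF492 has a point under it.

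Other members were too low in LNCaP for the rule on loss. ZNF253 had 6, 7 and 11 counts in LNCaP and 1, 2 and 0 in LNCaP/MUC1-C OE, just outside the limit, and ZNF208, with 22 in its lowest LNCaP library, lay nearest inside it. ZNF90 had 1, 9 and 8 counts, ZNF730 had 4, 5 and 6, and ZNF728 had 4, 3 and 2, and all were at 0 in the 3 LNCaP/MUC1-C OE libraries. The 95% exact intervals of their ratios of summed counts, LNCaP over LNCaP/MUC1-C OE, began at 3.35, 2.73 and 1.504 and had no upper limit. ZNF506 had 5, 4 and 2 counts against 1, 0 and 0. These 5 members did not pass the default filter on low counts and so are not among those tested in edgeR. With no filter edgeR called all 5 lower, and DESeq2 called ZNF253, ZNF730 and ZNF90 lower. ZNF486, ZNF626, ZNF729, ZNF98 and ZNF99 had 3 counts or fewer in all 6 libraries. The number of members above 3 counts was 26 or 27 in each LNCaP library and 18 in each LNCaP/MUC1-C OE library. Detection also fell outside the cluster. Of all listed genes, 31.1% to 32.1% were at 0 in the LNCaP libraries and 36.2% to 38.0% in the LNCaP/MUC1-C OE libraries, whose totals were lower. The share of all genes above 3 counts was not counted.

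Of the 24 members tested, 11 were called lower (adjusted p under 0.05 in the quasi-likelihood test of edgeR, Benjamini-Hochberg adjusted) and 10 higher, while 34.1% of all 13836 genes tested were called lower and 33.2% higher. Shares of 45.8% and 41.7% were near these levels, so the calls alone said little about the cluster. Decreases of 2-fold or more were found in 7 of the 24 (29.2%), with 10.5% over all genes. Members that passed the filter through their LNCaP libraries alone had to differ, as the 6 lost ones did, and these shares carry that limit. The median log2 fold change of the tested members was -0.12 (quartiles -1.93 and 0.37), with -0.01 over all genes. It stayed at -0.12 with the 7 members at the floor in a group set to their ratios of summed counts, and it was 0.27 over the 17 members above the floor in both groups.

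The 5 other members called lower were each expressed in both groups. ZNF737 had 292, 263 and 292 counts in LNCaP and 103, 82 and 115 in LNCaP/MUC1-C OE, a log2 fold change of -1.11 ± 0.11 (SE; adjusted p = 5.45e-08). ZNF682 had 112, 98 and 99 counts against 49, 37 and 38, a change of -0.92 ± 0.17 (adjusted p = 1.31e-04). Together with the 6 lost members, these were the 8 largest decreases. The smallest were ZNF429 (-0.78), ZNF85 (-0.61) and ZNF14 (-0.27 ± 0.09, adjusted p = 0.0114). The CPM of all 5 did not overlap between the groups, but the share of all called genes without overlap was not counted. In edgeR the call of ZNF14 was lost without LNCaP replicate 3 (adjusted p = 0.0735) or without LNCaP/MUC1-C OE replicate 3 (adjusted p = 0.0510).

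The members that rose did so by little, with 1 exception. ZNF726 had 1, 1 and 2 counts in LNCaP and 20, 14 and 15 in LNCaP/MUC1-C OE, a ratio of summed counts of 16.1 (95% exact interval 5.89 to 61.3). It remained at 1.11 ± 0.230 CPM (SD, n = 3) there. ZNF738 had 249, 259 and 267 counts against 307, 277 and 346, from 13.3 ± 0.875 to 20.9 ± 0.270 CPM (log2 fold change 0.65 ± 0.09, SE; adjusted p = 2.86e-06). ZNF430 had 546, 460 and 484 counts against 519, 483 and 560, from 25.4 ± 1.33 to 35.2 ± 1.73 CPM, with a change of 0.46 ± 0.07 (adjusted p = 2.10e-05). In counts the groups of ZNF430 overlapped, and after scaling for library size they did not.

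ZNF100, the neighbour of the lost stretch, had 617, 523 and 595 counts against 568, 567 and 631, and its CPM went from 29.6 ± 1.77 to 39.8 ± 3.08 (SD, n = 3; log2 fold change 0.42 ± 0.07, adjusted p = 7.78e-05). ZNF431 had 407, 316 and 382 counts against 357, 318 and 449, with a change of 0.41 ± 0.09 (adjusted p = 4.71e-04). The other 5 that rose were ZNF708, ZNF101, ZNF254, ZNF675 and ZNF714, by 0.27 to 0.37. These small increases depended on the scaling: with library totals alone, which moved the median of all genes by -0.15, ZNF101, ZNF254, ZNF675 and ZNF714 were no longer called, and 32.4% rather than 49.4% of all calls were increases.

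ZNF493, ZNF492 and ZNF91 were not called. ZNF91, the SVA repressor, had 327, 307 and 291 counts in LNCaP and 224, 225 and 265 in LNCaP/MUC1-C OE, that is 15.8 ± 0.603 against 16.1 ± 1.05 CPM (SD, n = 3), and its log2 fold change was 0.02 ± 0.09 (SE). Decreases and increases met within the cluster, and its summed level moved little, from 388 ± 14.5 CPM in LNCaP to 368 ± 16.8 CPM in LNCaP/MUC1-C OE (SD, n = 3), and the groups overlapped. Along the chromosome, 23 pairs of neighbouring tested members could be formed. In 7 pairs both were called lower, in 5 both higher, in 6 one fell and the other rose, and 5 held a member that was not called.

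With DOX in LNCaP-ER cells, 10 of the 26 members tested were called lower (38.5%) and 0 higher, while 14.5% of all 14683 genes tested were called lower and 12.8% higher. The members called were ZNF681, ZNF492, ZNF730, ZNF93, ZNF43, ZNF737, ZNF100, ZNF85, ZNF253 and ZNF726. With all 6 libraries and TMM scaling no member was higher at an unadjusted p under 0.05 in edgeR, and DESeq2 called 11 lower and 0 higher. ZNF431 was higher at an unadjusted p under 0.05 without the library labelled DOX replicate 2 (log2 fold change 0.29, adjusted p = 0.0711) and with library totals alone (0.26, adjusted p = 0.113), and was not called in either. Decreases of 2-fold or more were found in 9 of the 26 (34.6%), with 3.7% over all genes. ZNF492 passed the filter through its vehicle libraries alone, so these shares also carry the limit given for overexpression. With a minimum of 10 counts in every library, 9 members were called lower, without ZNF492. The median log2 fold change was -0.38 (quartiles -1.38 and -0.16), with 23 values below 0 and 3 above, and -0.02 over all genes. No member was lost by the rule used above, out of 26 present with vehicle, as 0.0% of all genes present were.

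Without the library labelled DOX replicate 2, the same 10 members were called lower, 8 of them by 2-fold or more, and the median was -0.26. On the deposited TPM scale (log2 of TPM + 1, tested with limma), where the median of all genes was 0.45 and 95.2% rather than 46.8% of all calls were increases, the median of 18 members was above 0, at 0.24. On that scale only ZNF43 and ZNF737 remained called lower, ZNF708 was called higher, and ZNF681, ZNF492, ZNF730, ZNF93 and ZNF85 were under the limit of 1 TPM in 3 libraries.

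ZNF681, a member lost in LNCaP/MUC1-C OE, had the largest fitted decrease over the 6 libraries. It had 225, 142 and 156 counts with vehicle and 18, 16 and 15 with DOX, 5.45 ± 0.580 against 0.469 ± 0.126 CPM (SD, n = 3), and its log2 fold change was -3.55 ± 0.32 (SE; adjusted p = 4.11e-04 in the quasi-likelihood test of edgeR, Benjamini-Hochberg adjusted). All vehicle libraries lay above all DOX libraries, and the log2 fold change was -3.64 without the library labelled DOX replicate 2, where that of ZNF492 was larger (-3.76).

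ZNF492 had 39, 26 and 27 counts with vehicle and 5, 8 and 0 with DOX, a log2 fold change of -2.85 ± 0.88 (adjusted p = 0.0412). This call was the weakest: it was lost in 5 of the 6 fits that left out 1 library, all but that without DOX replicate 2, with adjusted p from 0.0705 to 0.133. ZNF492 also shares 17.8% of the 100-base words of its transcript with ZNF98, so reads of the pair could be split by the counting, and its value is uncertain. ZNF730 had 223, 93 and 140 counts against 35, 38 and 36 (log2 fold change -2.18 ± 0.34, adjusted p = 0.00300). ZNF93 had 88, 69 and 34 counts against 15, 15 and 16 (-2.18 ± 0.46, adjusted p = 0.00958), and its call was lost without vehicle replicate 2 (adjusted p = 0.0519).

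ZNF43 had 1737, 962 and 963 counts with vehicle and 391, 354 and 591 with DOX, a log2 fold change of -1.63 ± 0.15 (SE; adjusted p = 4.60e-04). In CPM it went from 37.7 ± 7.36 to 12.2 ± 0.494 (SD, n = 3), with vehicle replicate 1 the highest, and it stayed far from the floor that it reached in LNCaP/MUC1-C OE. The 5 other members called lower were ZNF737 (-1.43), ZNF100 (-1.23), ZNF85 and ZNF253 (each -1.18) and ZNF726 (-0.95). ZNF737 had 1204, 766 and 725 counts against 321, 312 and 508, and ZNF100 had 1382, 1026 and 966 against 572, 379 and 691. For these 10 members, already chosen by their calls, the CPM of the groups did not overlap. The share of all called genes without overlap was not counted, so this is no separate result.

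The 16 members not called had log2 fold changes between -1.58 (ZNF728) and 0.20 (ZNF708). ZNF66, measured in this experiment only, had 462, 145 and 138 counts against 121, 91 and 170 and missed the threshold (-1.09 ± 0.36, adjusted p = 0.0525). Its first vehicle library was far above the others. ZNF91 was the most abundant member in CPM, with 7463, 5074 and 4632 counts against 4855, 4856 and 6875 (178 ± 17.6 to 153 ± 9.15 CPM, SD, n = 3; log2 fold change -0.22 ± 0.10, adjusted p = 0.132). The 9 members not tested were ZNF257, with 2 counts or fewer in every library, and ZNF90, ZNF486, ZNF626, ZNF208, ZNF676, ZNF729, ZNF98 and ZNF99, with 17 counts or fewer. In 7 of these 8 the library labelled DOX replicate 2 held the highest count. The summed level of the members was 676 ± 63.9 CPM with vehicle, with replicate 1 at 750 and the others at 635 and 644, and 518 ± 10.4 CPM with DOX (SD, n = 3), where the libraries lay between 507 and 528 and so below every vehicle library.

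**Figure D3:**
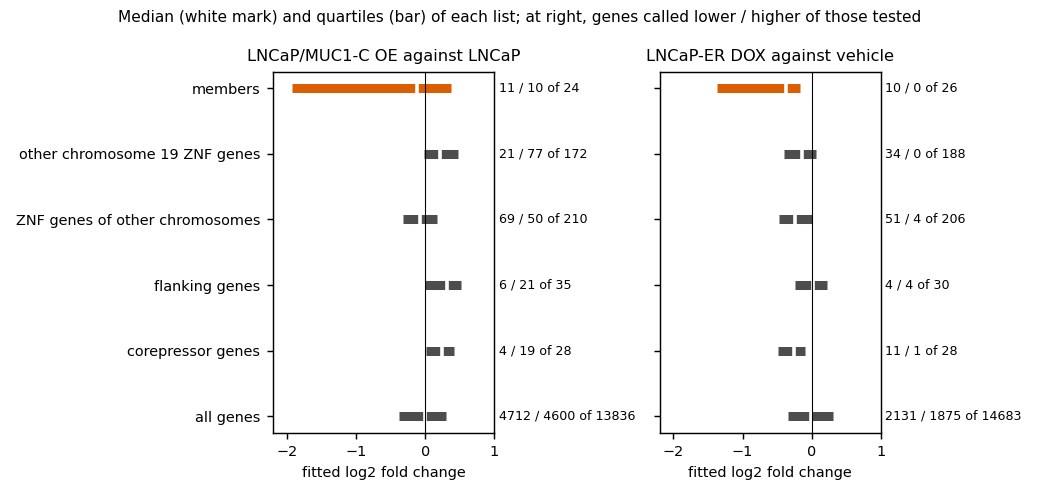
Median (white mark) and quartiles (bar) of the fitted log2 fold change (x axis) for the members, the other ZNF genes, the genes flanking the members, the corepressor genes and all genes tested, for LNCaP/MUC1-C OE against LNCaP (left) and LNCaP-ER DOX against vehicle (right). Numbers at the right of each panel are genes called lower / higher of those tested. The bar of the members reaches farther below 0 than the other bars in both panels, to -1.93 and -1.38.

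Other ZNF genes and neighbours were set beside the members by the same counts. In the overexpression experiment, 21 of 172 other ZNF genes of chromosome 19 were called lower and 77 higher (median log2 fold change 0.21), and of 210 on other chromosomes 69 were called lower and 50 higher (median -0.08). Of 35 genes of other kinds that flank the members or lie among them, 6 were called lower and 21 higher (median 0.32). In the silencing experiment, 34 of 188 other ZNF genes of chromosome 19 were called lower and 0 higher, with 4 higher at an unadjusted p under 0.05 and 2 called higher by DESeq2 (median -0.14). Of 206 on other chromosomes, 51 were called lower and 4 higher (median -0.24), and of 30 flanking genes 4 were called lower and 4 higher (median 0.01). The 34 of chromosome 19 became 20, 12, 15 and 10 without DOX replicate 1, DOX replicate 3, vehicle replicate 2 and vehicle replicate 3, and the 51 elsewhere became 28, 30 and 22 without the last 3 of these, while members called lower stayed at 9 or 10. The 4 flanking genes called lower became 1 without any of the last 3 of these libraries and 2 without DOX replicate 1, and the 4 called higher became 2, 1 and 2 without the last 3 and 7 without DOX replicate 2. Decreases with DOX were thus also found among ZNF genes outside the cluster. By 2-fold or more they numbered 3 of the 188 (1.6%), 12 of the 206 (5.8%) and 0 of the 30 flanking genes, with 34.6% of the members. With overexpression they numbered 6 of the 172 (3.5%), 12 of the 210 (5.7%) and 4 of the 35 flanking genes (11.4%), with 29.2% of the members. The shares of the members carry the limit of the filter given above. Whether the members differed from the other lists was not tested.

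A list of 28 genes, named corepressor genes here, was measured as well. It held TRIM28, SETDB1 and other genes of repressive chromatin, among them DNA methylation genes. In LNCaP/MUC1-C OE, 4 were called lower (14.3%) and 19 higher (67.9%), with 34.1% and 33.2% over all genes tested. TRIM28, the protein that KRAB domains bind, had 8769, 8330 and 8146 counts against 8613, 7755 and 10536, a log2 fold change of 0.48 ± 0.04 (SE; adjusted p = 4.13e-08 in the quasi-likelihood test of edgeR, Benjamini-Hochberg adjusted), and SETDB1, the H3K9 methyltransferase, rose by 0.55 ± 0.06. The largest increases were those of UHRF1 (0.89) and DNMT1 (0.85), which maintain DNA methylation, and the largest decreases those of CBX5 (HP1 alpha; -0.36) and ATRX, a chromatin remodeller (-0.19). With DOX, 11 were called lower (39.3%, and 7 genes without DOX replicate 3) and 1 higher (3.6%), with 14.5% and 12.8% over all genes tested. DNMT3A (-1.21) and DNMT3B (-0.90), the de novo DNA methyltransferases, fell most, and MPHOSPH8 of the HUSH complex rose by 0.41. SETDB1 fell by 0.42 on the log2 scale (adjusted p = 0.0305), a call lost with library totals alone (adjusted p = 0.0587), and TRIM28 was at -0.18 ± 0.11 and was not called.

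Between the experiments, 21 members were tested in both. ZNF93, ZNF737, ZNF85, ZNF43 and ZNF681 were called lower in each of the 2. Over all genes tested, 34.1% were called lower with overexpression and 14.5% with DOX. The share of all genes called lower in both was not counted, so the overlap of these calls is no separate result. MUC1 RNA rose in LNCaP/MUC1-C OE (log2 fold change 8.91). With DOX it was not called over the 6 libraries (0.12 ± 0.93, SE, adjusted p = 0.935 in edgeR), with DOX replicate 2 the highest. In CPM, MUC1 was at 0.690, 0.340 and 0.461 with vehicle and at 0.091, 1.41 and 0.172 with DOX. Opposite changes of MUC1 in the 2 experiments were thus not shown over all 6 libraries. Without DOX replicate 2, MUC1 was lower in each DOX library than in any vehicle library, at low counts in both groups. ZNF100 and ZNF726 were higher in LNCaP/MUC1-C OE and lower with DOX, 8 members were higher in LNCaP/MUC1-C OE and not called with DOX, and the other 6 fell into the remaining classes. The experiments have separate controls and separate tables, so no difference between them was tested.

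**Figure D4:**
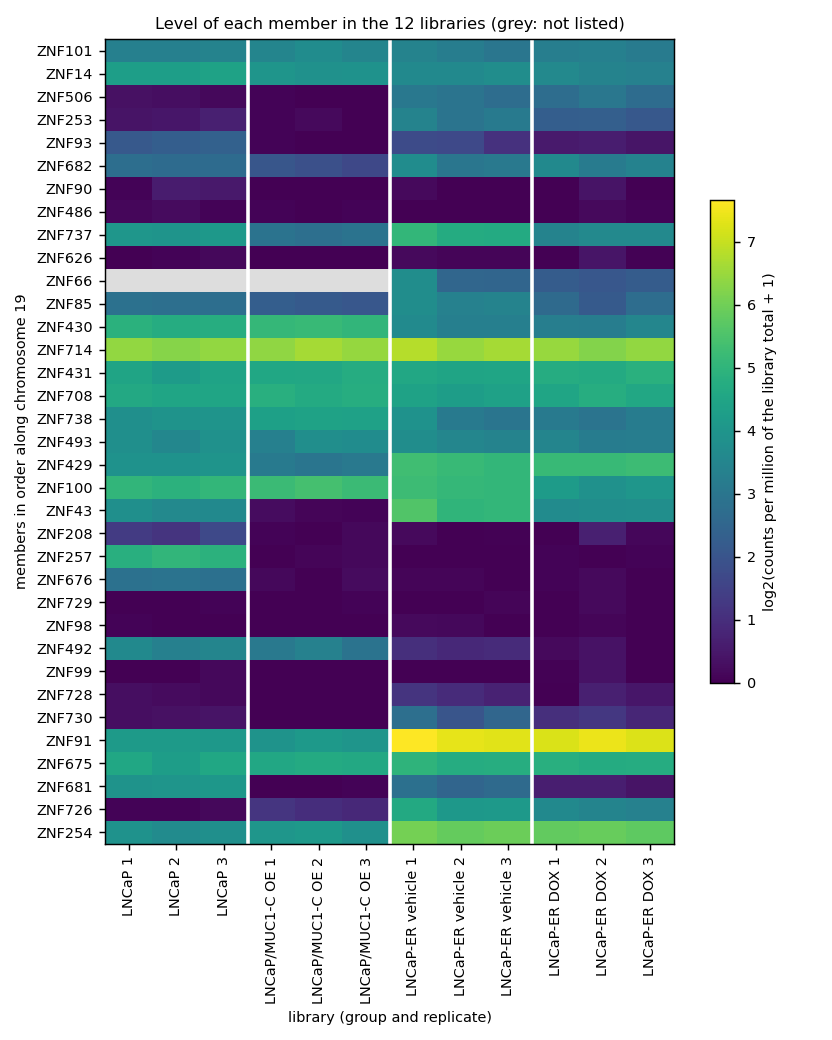
Level of each of the 35 members (rows, in order along chromosome 19) in each of the 12 libraries (columns, by group and replicate), as log2 of CPM (of the library total) plus 1, from dark (0) to bright (high); grey cells are not listed. The rows of ZNF91 and ZNF254 are brighter in the LNCaP-ER libraries than in the other libraries, and ZNF257 and ZNF676 are bright in the LNCaP libraries only.

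The members expressed before treatment differed between the 2 experiments. In CPM of the library total, ZNF91 was at 16.7 ± 0.635 in LNCaP and at 174 ± 23.2 in LNCaP-ER vehicle, and ZNF254 was at 12.9 ± 0.959 and 61.0 ± 4.41 (SD, n = 3). ZNF726 was at 0.0724 ± 0.0322 in LNCaP and 18.8 ± 4.49 in LNCaP-ER vehicle. ZNF257 went the other way, from 29.6 ± 2.37 in LNCaP to no count in any vehicle library, and ZNF676 from 6.29 ± 0.185 to 0.0486 ± 0.0428. ZNF208, ZNF257 and ZNF676, lost in LNCaP/MUC1-C OE, were thus near or at 0 in LNCaP-ER cells before DOX. These values are set side by side without a test, and the doubt on the line of the libraries labelled LNCaP bears on all of them.

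Divided by relative gene length, recovered for 31 members from the deposited counts and TPM of the silencing experiment, the order of the levels in LNCaP was led by ZNF675 (34.6 ± 4.01 CPM per unit of relative length, SD, n = 3) and ZNF714 (30.3 ± 1.78), followed by ZNF430 (23.4 ± 1.22) and ZNF14 (22.6 ± 1.27). ZNF675 and ZNF714 lay within the sum of their SDs of each other, as did ZNF430 and ZNF14. In LNCaP-ER vehicle ZNF91 led with 114 ± 11.3, ahead of ZNF675 (49.1 ± 3.35) and ZNF254 (46.7 ± 2.17). Of the members lost with overexpression, ZNF681 was at 7.62 ± 0.369 in LNCaP (rank 10 from the highest) and ZNF93 at 4.85 ± 0.501 (rank 17). ZNF43 was at 3.85 ± 0.308 (rank 18) and ZNF208 at 0.457 ± 0.145 (rank 22). The rule on loss needed 10 or more counts in each LNCaP library, so members below that could not be counted as lost. ZNF257 and ZNF676 had too few counts in the silencing experiment for a length.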

How the data were processed

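RNA-Seq was analysed for 12 libraries of cells labelled LNCaP or LNCaP-ER, in 4 groups of 3. The authors prepared stranded mRNA libraries and deposited whole-number counts per gene by symbol, without normalization, and for the silencing experiment also TPM values. The submitters' processing notes name STAR, DESeq2, GRCh38 and hg38, and versions are not given in the sources used here. Another 12 columns of per-sample values for other lines in the overexpression table were not used. Columns named vector were matched to the LNCaP samples by line and replicate number.

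From the deposited counts, each experiment was tested with edgeR 4.0.16 (quasi-likelihood, robust, TMM, default filter, R 4.3.3) over all genes, with Benjamini-Hochberg adjustment and a threshold of 0.05. CPM values are scaled by TMM unless stated. Alternatives were DESeq2 1.42.0, other size factors and filters, a replicate block, leaving out each library, and limma 3.58.1 on the deposited TPM (pseudocount 1, at least 1 TPM in 3 libraries). The edgeR fit was tested on simulated data. Members, lists and the rule on loss were chosen with earlier results of these data known. Values in every library are given by rule for lost members, for the 8 largest called decreases and 5 largest increases with overexpression, and for the 5 largest called decreases and increases with DOX. Outside the cluster the rule took MUC1, TRIM28, SETDB1 and the 2 corepressor genes with the largest called changes in each direction. Values of other members, and the names of genes lost outside the cluster, were added after they were seen. The search for CCAAT and CCAATCA was also outside the plan.

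Intervals and the floor of 3 counts cover counting error only, and p-values measure the spread between triplicate cultures. Positions are from RefSeq (GRCh38.p14). Relative gene length is the ratio of deposited counts to TPM. Overlapping genes and shared sequence were read from GENCODE v29. Promoter windows are from RefSeq, and 8 members had none. Shares over genes count a gene where any of its windows matches.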

Additional observations from a re-analysis of the deposited data

How the results depend on the processing

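The 6 lost members rest on raw counts. With a limit of 10 counts or fewer against 30 or more, 5 remained, and ZNF208, with 22 and 29 counts in 2 LNCaP libraries, fell outside. In the overexpression experiment, a minimum of 10 counts in every library, which removes genes that fell to the floor, left 5 members called lower, 1 of them by 2-fold or more, and turned the median log2 fold change to 0.241. With no filter, 12 members were called lower by 2-fold or more and the median was -0.842, and with DESeq2 it was -0.694. With library totals alone, 6 members were called higher, the median was -0.276 and the summed level moved by -0.227 (log2). Then 32 other ZNF genes of chromosome 19 were called lower, as were 110 ZNF genes of other chromosomes (28 higher) and 8 corepressor genes (12 higher). Leaving out 1 library moved no count of this experiment by over 1.5 times, and the median ranged from -0.181 to -0.074.

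In the silencing experiment, deposited TPM with limma called 2 members lower, 1 higher and 0 lower by 2-fold or more (3 lower at an unadjusted p under 0.05), with a median of 0.242 and a summed level of 0.213 (log2), both reversed. It called 0 other ZNF genes of chromosome 19 lower (1 at an unadjusted p under 0.05) and 23 higher, 3 and 28 of other chromosomes, 0 and 14 flanking genes, and 0 and 6 corepressor genes. SETDB1 (0.128, adjusted p = 0.635) and FAM208A (0.154, adjusted p = 0.581) changed sign, and the cause was not tested. The median was -0.208 with DESeq2 and -0.226 with no filter, and library totals alone gave a summed level of -0.318. Other ZNF genes of chromosome 19 called higher numbered 2 with DESeq2 and library totals alone, and 1 with a minimum of 10 counts in every library, median-of-ratios factors or no filter. Flanking genes called higher numbered 7 with DESeq2 and with library totals alone, which also called 20 other ZNF genes of chromosome 19 lower and 8 of other chromosomes higher.

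Over the 6 fits that left out 1 library each, members called lower ranged from 9 to 10, their median from -0.461 to -0.256 and their summed level from -0.429 to -0.305. All genes called ranged from 1900 (without vehicle replicate 3; 2067 without DOX replicate 3, 2200 without vehicle replicate 2) to 5243 (without DOX replicate 2). Other ZNF genes of chromosome 19 called lower ranged from 10 to 30 and higher from 0 to 6, those of other chromosomes from 22 to 57 and 2 to 12, flanking genes from 1 to 5 and 1 to 7, and corepressor genes from 7 to 11 and 0 to 2. Fits without DOX replicate 3 or vehicle replicate 2 or 3 left flanking genes called lower at 1 (2 without DOX replicate 1) and those called higher at 2, 1 and 2. DOX replicate 3 alone took corepressor genes called lower to 7, and the fit without DOX replicate 2 gave the highest counts of increases in each of these lists.

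Deviations of samples with the same replicate number correlated at -0.149 to 0.0868, so the numbers did not pair the samples. With a replicate block, 11 members were called lower and 10 higher in the overexpression experiment, and 12 lower and 0 higher in the silencing experiment, where ZNF66 and ZNF714 were added. Not every library correlated best with its own number, and all genes called numbered 8965 and 4226 with the block. Of single-gene values under the alternatives, 402 of the overexpression experiment kept direction and call, 7 lost and 4 gained the call; the numbers were 430, 26 and 11 in the silencing experiment, with the 2 reversals above. A decrease of a member already near 3 counts was not detectable at this depth.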
